A study of Homo sapiens with 6 samples.

Results

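The genes described here are 8 regulators of globin switching and erythroid progenitors: BCL11A, ZBTB7A, SOX6, LIN28B, HIC2, NFIA, NFIX and MYB. They were chosen by name, as the identifiers of the deposited read count table that map to these symbols, and they are 8 of its 61661 identifiers. Of the 8, 7 were among the 17686 genes with enough reads to be tested, and BCL11A was not. MYB mRNA was lower in both knockdowns than in the control, by 18.0% in shMETTL3 cells and 16.7% in shMETTL14 cells. NFIA was lower in shMETTL3 cells, by 18.5%, a call that most alternative settings did not keep.

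The switch from fetal gamma-globin to adult beta-globin depends on repressors that sit on the gamma-globin promoters. BCL11A and ZBTB7A (also called LRF) are the main ones, each binding its own promoter sequence and recruiting the NuRD corepressor complex, and SOX6 acts together with BCL11A. HIC2 represses BCL11A transcription in fetal cells, and LIN28B is an RNA-binding protein of fetal progenitors that blocks the maturation of let-7 microRNAs and lowers BCL11A. NFIA and NFIX are nuclear factor I proteins that act in erythroid differentiation and on the fetal globin genes, and MYB keeps progenitors proliferating and activates regulators of the adult programme.

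RNA was sequenced from K562, an established human line of chronic myeloid leukemia in blast crisis, labelled as coming from a pleural effusion. K562 cells are known to make embryonic and fetal globins rather than adult beta-globin. There were 3 groups of 2 libraries each: shCTR cells, with the genotype label WT and a lentiviral nonsense shRNA, shMETTL3 cells with METTL3 knockdown, and shMETTL14 cells with METTL14 knockdown. The study's methods describe the shCTR and shMETTL3 lines as stable lentiviral lines selected with puromycin. They do not describe the METTL14 line, which is known only from its label, and its vector is not stated. METTL3 and METTL14 form the complex that writes N6-methyladenosine (m6A) into mRNA. No source says that the 2 libraries of a group came from separate cultures, so p-values measure only the spread between these libraries, which may be technical. Library totals ran from 19292574 to 20115304 reads. METTL3 fell from 1788 and 1728 reads in the controls to 1031 and 938 in its knockdown (log2 fold change -0.87, SE 0.0782, adjusted p = 3.44e-07 in edgeR). For METTL14 the shCTR libraries held 656 and 655 reads against 375 and 404 in the shMETTL14 libraries (log2 fold change -0.76, SE 0.0888, adjusted p = 1.40e-05 in edgeR). All 9 erythroid and K562 marker genes looked at (GATA1, TAL1, KLF1, HBG1, HBG2, HBE1, HBZ, TFRC, EPOR) passed the filter on low counts. Their summed level was 1640 CPM (read counts scaled to library size, rounded) in both shCTR libraries, 1840 in both shMETTL3 and 1640 in both shMETTL14 libraries, of which TFRC, the transferrin receptor, made up 740 to 894 CPM. Of the 9, 4 were higher in shMETTL3 cells (HBE1, HBZ, KLF1 and EPOR) and 3 in shMETTL14 cells (HBE1, KLF1 and EPOR). At the same threshold, an adjusted p under 0.05 in edgeR, 8.73% and 3.43% of all tested genes were higher. EPOR, the erythropoietin receptor, had log2 fold changes of 0.36 (adjusted p = 0.0129) and 0.40 (adjusted p = 0.0127, both in edgeR), each called in 10 of 13 alternative settings. Of 7 monocytic and granulocytic markers 5 had at most 3 reads in every library, with S100A8 at 0. ITGAM had 8 to 17 reads. LYZ, the lysozyme gene, stood apart, at 830 and 840 reads in shCTR, 324 and 310 in shMETTL3, and 1177 and 1273 in shMETTL14 libraries. Of 4 megakaryocytic markers GP9 and PF4 were at 0 in every library and PPBP had at most 2 reads. The fourth, ITGA2B, had 227 and 254 reads in shCTR, 441 and 405 in shMETTL3, and 220 and 211 in shMETTL14 libraries. ITGA2B rose in shMETTL3 cells (log2 fold change 0.78, adjusted p = 8.21e-05 in edgeR, called in 13 of 13 alternatives) and was at -0.17 in shMETTL14 cells (adjusted p = 0.456 in edgeR). The 5 lymphoid markers (CD3E, CD79A, MS4A1, CD2, LCK) had at most 4 reads in any library. The part of cells expressing LYZ or ITGA2B in the results below was not tested. In such bulk RNA, fewer cells of a type and less RNA per cell cannot be told apart.

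To compare the members with each other, CPM was divided by the length in kb of each gene's longest transcript (GENCODE 29). On this per-length scale MYB was the most abundant of the 8 in shCTR cells, at 75.6 ± 1.33 CPM per kb (SD, n = 2), above 95.2% of the 16674 tested genes with a length. HIC2 followed at 42.6 ± 1.69 and LIN28B at 11.0 ± 0.981 CPM per kb. ZBTB7A stood at 9.25 ± 0.563 and NFIX at 5.78 ± 0.163 CPM per kb, near the middle of the tested genes (above 61.0% and 50.5% of them). NFIA at 3.22 ± 0.256 and SOX6 at 3.15 ± 0.393 CPM per kb did not differ beyond their spread on this length, and in 5 of the 6 libraries SOX6 stood above NFIA. Per summed exon length they did differ, at 2.81 ± 0.223 for NFIA and 1.42 ± 0.177 for SOX6 (SD, n = 2), so their near tie depends on the length used. BCL11A was last, at 0.0236 ± 0.00425 CPM per kb, above 0.156% of the tested genes. Of the adjacent pairs in this order per longest transcript, only NFIA and SOX6 traded places between libraries. The ranges of LIN28B and ZBTB7A, 10.3 to 13.1 and 8.86 to 10.3 CPM per kb over all libraries, met at their ends.

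**Figure D1:**
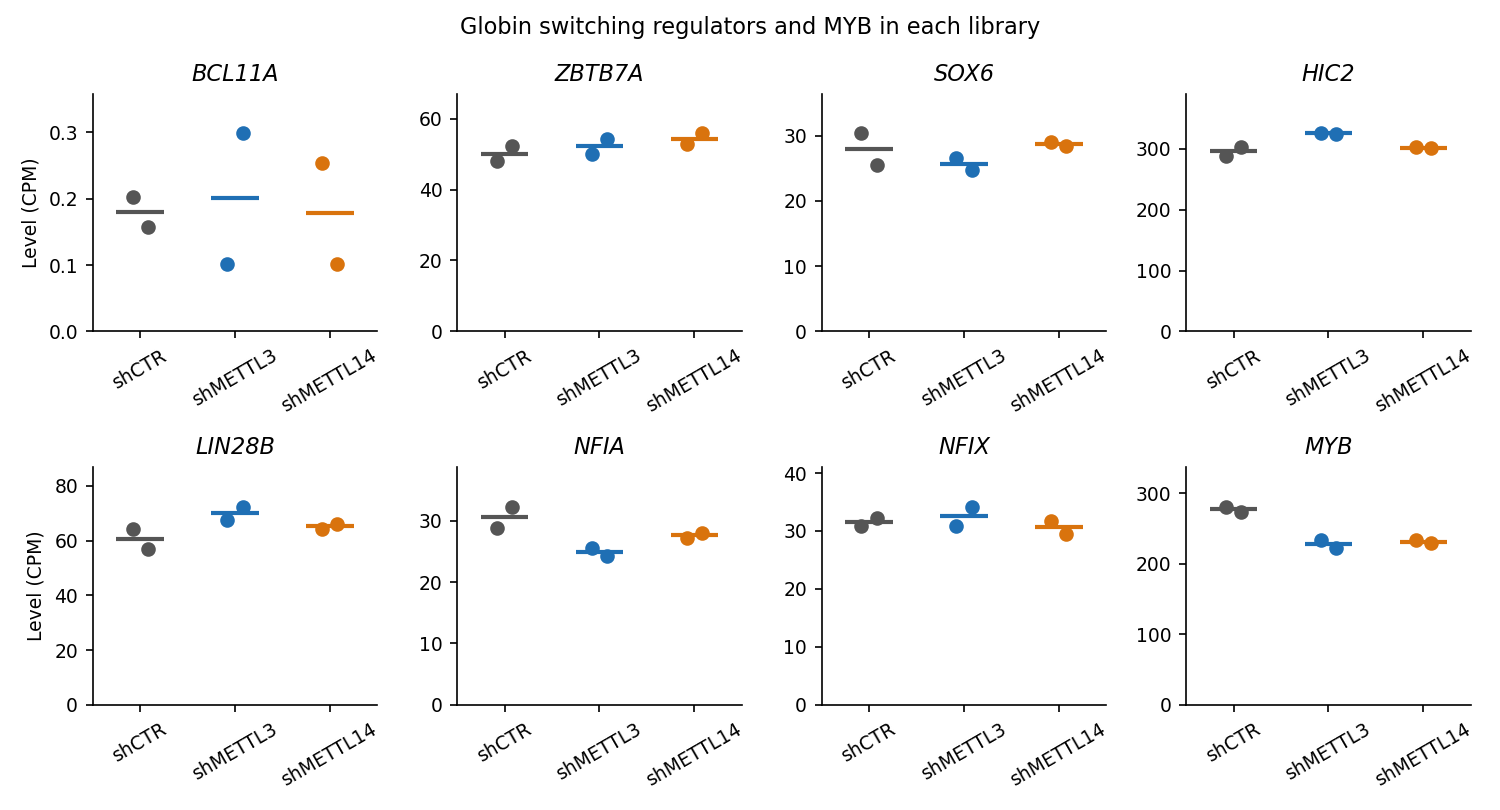
Level of each of the 8 genes in each library, in CPM scaled by edgeR's TMM factors, on linear axes that start at 0; points are libraries (2 per group) and bars are group means. MYB sat at 274 to 281 CPM in shCTR and at 223 to 234 CPM in all 4 knockdown libraries, and BCL11A stayed below 0.3 CPM throughout.

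MYB (ENSG00000118513) is a transcription factor of haematopoietic progenitors, and lower MYB activity is known to go with raised fetal hemoglobin. On GRCh38 the gene lies at chr6:135181315-135219173 on the plus strand, and its longest coding transcript in GENCODE 29 has 3672 bases in 16 exons. The sequence below is shown because GGACT is a sequence often methylated by the METTL3 and METTL14 complex. It is the GGACT nearest to the stop codon of that transcript, with the motif in capitals and 10 bases on each side. It lies in the coding sequence of exon 10, at chr6:135197066-135197090, plus strand.
MYB: gagggcaatgGGACTaaacctgcag
MYB held 2 such motifs, both in its coding sequence, or 0.545 per kb. Across the longest coding transcripts of 12512 tested genes the median was 0.933 per kb (quartiles 0.568 and 1.39), and 92.2% held at least 1. The motif was searched on the transcript strand only. Methylation of these letters was not analysed here.

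MYB reads were 5556 and 5250 in shCTR, 4568 and 4476 in shMETTL3, and 4600 and 4485 in shMETTL14 libraries. All 4 knockdown libraries were lower than both shCTR libraries, and the 2 knockdowns overlapped with each other. In CPM such a gap below the controls was found for 27.3% of all tested genes in shMETTL3 and 23.9% in shMETTL14 cells. The mean level was 278 ± 4.90 CPM (SD, n = 2) in the controls, 228 ± 6.70 CPM after METTL3 knockdown and 231 ± 3.77 CPM after METTL14 knockdown. MYB fell in shMETTL3 cells, with a log2 fold change of -0.29 (SE 0.0582, 95% confidence interval -0.41 to -0.16, adjusted p = 0.00214 in edgeR, Benjamini-Hochberg adjusted over all 17686 genes). In shMETTL14 cells it was -0.26 (SE 0.0582, interval -0.38 to -0.14, adjusted p = 0.00853 in the same edgeR fit). The knockdowns share their shCTR libraries, so these are 2 readings against 1 pair of controls. Set against each other directly, shMETTL3 minus shMETTL14 was -0.02 (interval -0.15 to 0.10, adjusted p = 0.854 in edgeR), an interval that runs from -9.56% to 7.12% in percent. Among the 1550 tested genes within 2-fold of MYB's level, 6.97% had a more negative log2 fold change in shMETTL3 cells and 3.55% in shMETTL14 cells, and 27.0% and 10.5% of them were called. MYB was past the threshold in 12 of 13 alternative settings in shMETTL3 cells, with log2 fold changes from -0.32 to -0.23. The call was lost when shMETTL3 replicate 2 was left out (adjusted p = 0.072 in edgeR), a setting that called 5.99% of all genes. In shMETTL14 cells it was kept in 11 of 13, and lost without either shMETTL14 library (adjusted p up to 0.121 in edgeR), settings that called 1.84% and 2.15% of all genes.

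MYB mRNA is a known target of the miR-15a and miR-16 microRNAs, whose levels bear on fetal hemoglobin. Their mature sequences (RefSeq, GRCh38.p14) and the matches to their shared seed, bases 2 to 8, are printed with the seed or its match in capitals. Both matches lie in the 3′UTR, in exon 16, 654 and 681 bases after the stop codon, at chr6:135218628-135218646 and chr6:135218655-135218673, plus strand.
hsa-miR-15a-5p: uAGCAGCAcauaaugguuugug
hsa-miR-16-5p: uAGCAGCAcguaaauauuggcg
MYB 3′UTR match 1: gtttttTGCTGCTatggtc
MYB 3′UTR match 2: tagacaTGCTGCTagtatc
The MYB 3′UTR of 1187 bases held TGCTGCT 2 times on its own strand. Of 1731 3′UTRs of similar length among tested genes, 20.5% held it and 3.76% held it at least 2 times. The libraries were made from poly(A) mRNA, and mature microRNAs were not analysed here.

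Of the 7 tested members, 2 were past the threshold in shMETTL3 cells, MYB and NFIA, both lower, against 16.5% of all tested genes in either direction (8.73% higher and 7.73% lower). In shMETTL14 cells 1 of the 7, MYB, was past the threshold, lower, against 6.69% of all tested genes in either direction (3.43% higher and 3.26% lower). DESeq2 called MYB alone in each knockdown, where it called 12.6% of 14943 and 5.62% of 13571 genes to which it gave an adjusted p. MYB was thus among the 234 genes called lower in both knockdowns, 1.32% of the genes tested (1.50% were called higher in both). None of the 7 differed between shMETTL3 and shMETTL14 cells, where 12.1% of all genes did (6.65% higher and 5.49% lower in shMETTL3 cells). None had an unadjusted p under 0.05 in edgeR in that comparison either. DESeq2 called none of the 7, against 8.31% of the 15971 genes to which it gave an adjusted p. In CPM the libraries of the 2 knockdowns did not overlap for HIC2 and LIN28B, higher in shMETTL3 cells, and for NFIA and SOX6, lower, as for 28.4% and 28.3% of all genes.

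**Figure D2:**
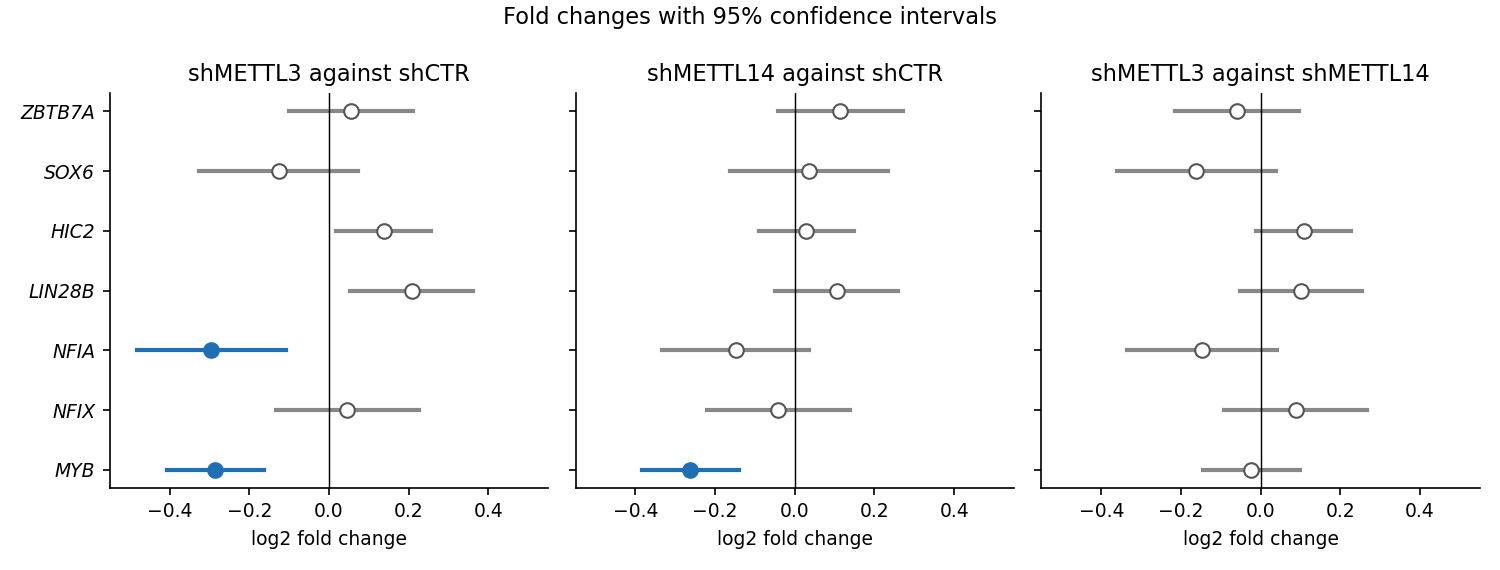
The log2 fold changes (x axis) of the 7 tested genes in the 3 comparisons; points are estimates from edgeR's fit over all 6 libraries, bars are 95% confidence intervals, and filled blue points are past an adjusted p of 0.05. MYB is filled at -0.29 and -0.26 in the knockdowns, NFIA at -0.30 in shMETTL3 cells alone, and the interval of every gene includes 0 in shMETTL3 against shMETTL14.

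BCL11A (ENSG00000119866, chr2:60450520-60555154, minus strand), the best known repressor of the gamma-globin genes, was close to undetected. It had 4 and 3 reads in shCTR, 2 and 6 in shMETTL3, and 5 and 2 in shMETTL14 libraries. The groups overlapped, with sums of 7, 8 and 7 reads. Exact Poisson intervals of these sums were 2.81 to 14.4, 3.45 to 15.8 and 2.81 to 14.4 reads, which cover counting error only. No fold change was computed, and a difference was not detectable at this depth. Several regulators described below act on BCL11A in erythroid cells, and in these libraries its mRNA was near the floor of 3 reads.

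ZBTB7A (ENSG00000178951, chr19:4044364-4066945, minus strand), the other main gamma-globin repressor, was well covered. Its reads were 949 and 1002 in shCTR, 984 and 1087 in shMETTL3, and 1037 and 1095 in shMETTL14 libraries. The shMETTL14 libraries were above both shCTR libraries, while shMETTL3 overlapped with shCTR. A gap of this kind above the controls was found for 25.0% of tested genes. In shMETTL3 cells ZBTB7A was at 0.06 on the log2 scale (SE 0.0749, interval -0.10 to 0.21, adjusted p = 0.667 in edgeR). In shMETTL14 cells it was 0.11 (SE 0.0747, interval -0.04 to 0.27, adjusted p = 0.415 in edgeR). Neither passed the test, and in percent the intervals ran from -6.76% to 15.8% and from -2.85% to 20.6%. The sign in shMETTL3 cells turned under 3 alternatives, to -0.09 at most, so it carries no direction.

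SOX6 (ENSG00000110693, chr11:15966449-16739591, minus strand) encodes the HMG-box partner of BCL11A at the globin locus. Its reads were 601 and 488 in shCTR, 522 and 495 in shMETTL3, and 569 and 556 in shMETTL14 libraries. The shCTR libraries stood farthest apart, and both knockdowns overlapped with them. The log2 fold changes were -0.13 (SE 0.0958, interval -0.33 to 0.07, adjusted p = 0.404 in edgeR) and 0.04 (SE 0.0949, interval -0.16 to 0.23, adjusted p = 0.879 in edgeR). The SOX6 gene shares 219 exon bases, on the opposite strand, with C11orf58, which had 3962 to 4394 reads, and no source states whether the counting used strand. Reads of the 2 genes in the shared bases may therefore be lost or counted for the wrong gene.

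HIC2 (ENSG00000169635, chr22:21417404-21451463, plus strand) encodes a zinc finger repressor that lowers BCL11A transcription in fetal erythroid cells. It was the second most abundant member per length. Its reads were 5682 and 5822 in shCTR, 6402 and 6515 in shMETTL3, and 5957 and 5893 in shMETTL14 libraries. In CPM the shMETTL3 libraries, at 326 and 325, were above the 4 others, which spanned 288 to 304. Libraries that do not overlap in this direction were found for 28.7% of tested genes in shMETTL3 against shCTR. In shMETTL3 cells the value was 0.14 on the log2 scale (SE 0.0573, interval 0.02 to 0.26, unadjusted p = 0.027 and adjusted p = 0.111 in edgeR), so it did not pass the test. In shMETTL14 cells it was 0.03 (SE 0.0574, interval -0.09 to 0.15, adjusted p = 0.826 in edgeR). The HIC2 transcript is rich in GC, at 59.2%, and its log2 fold change in shMETTL3 cells was -0.03 once GC and length trends had been taken out of each library. It passed the test with library size alone as the scaling (0.19, adjusted p = 0.0257) and without shCTR replicate 2 (0.175, adjusted p = 0.0344, both in edgeR).

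LIN28B (ENSG00000187772, chr6:104936616-105083332, plus strand) encodes the RNA-binding protein that keeps let-7 microRNAs immature, and let-7 in turn targets the LIN28B mRNA. The mature sequences of let-7a and let-7b (RefSeq, GRCh38.p14), which share their seed, and the 4 matches to it in the LIN28B 3′UTR are printed with the seed or its match in capitals. The matches lie in exon 4, the last, 44, 2471, 2653 and 4092 bases after the stop codon, on the plus strand. Their positions are chr6:105078821-105078839, chr6:105081248-105081266, chr6:105081430-105081448 and chr6:105082869-105082887.
hsa-let-7a-5p: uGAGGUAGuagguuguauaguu
hsa-let-7b-5p: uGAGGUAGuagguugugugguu
LIN28B 3′UTR match 1: caaagtCTACCTCatgcaa
LIN28B 3′UTR match 2: tagtaaCTACCTCtgagtt
LIN28B 3′UTR match 3: aaaaggCTACCTCatagtt
LIN28B 3′UTR match 4: tgttgaCTACCTCttgaat
The 3′UTR of 4549 bases held CTACCTC 4 times on its own strand. Of 1184 tested genes' 3′UTRs of similar length, 23.6% held it and 0.253% held it at least 4 times.

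LIN28B reads were 1273 and 1087 in shCTR, 1328 and 1452 in shMETTL3, and 1266 and 1293 in shMETTL14 libraries. In CPM, shMETTL3 at 67.6 and 72.4 lay above shCTR at 64.4 and 56.8, a gap found for 28.7% of tested genes. The shMETTL14 libraries overlapped with shCTR. The log2 fold change in shMETTL3 cells was 0.21 (SE 0.0736, interval 0.05 to 0.36), with an unadjusted p of 0.0108 and an adjusted p of 0.0600 in edgeR. It did not pass the test. It was past the threshold in 4 of 13 alternatives: library size alone (adjusted p = 0.019 in edgeR), the GC and length trend removed (adjusted p = 0.00179 in edgeR), the replicate number as a block, and without shCTR replicate 1 (0.30, adjusted p = 0.0122 in edgeR). Without shCTR replicate 2 the value was 0.12. In shMETTL14 cells the log2 fold change was 0.11 (SE 0.074, interval -0.05 to 0.26, adjusted p = 0.457 in edgeR).

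NFIA (ENSG00000162599, chr1:60865259-61462793, plus strand) encodes a nuclear factor I protein that promotes erythroid over granulocytic differentiation. Its GGACT motif nearest to the stop codon, 219 bases into the 3′UTR in exon 11, at chr1:61455529-61455553 on the plus strand, is printed beside those of LIN28B and HIC2 for comparison with MYB. The LIN28B motif lies in the 3′UTR (chr6:105080878-105080902) and that of HIC2 in the coding sequence (chr22:21445176-21445200), both on the plus strand.
NFIA: aatactttagGGACTgttgtaattt
LIN28B: aggaaattatGGACTtcaaaattgg
HIC2: agcagatcttGGACTtcatctacac
NFIA held 6 GGACT motifs, all in the 3′UTR (0.632 per kb), LIN28B 2 (0.363 per kb) and HIC2 4 (0.576 per kb). ZBTB7A held 9 (1.66 per kb), NFIX 6 (1.10 per kb), SOX6 7 (0.790 per kb) and BCL11A 6 (0.789 per kb). MYB and NFIA, the 2 members called lower in shMETTL3 cells, were both below the median density of tested transcripts, and so were LIN28B, HIC2, SOX6 and BCL11A.

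NFIA reads were 570 and 618 in shCTR, 503 and 485 in shMETTL3, and 534 and 548 in shMETTL14 libraries. All knockdown libraries were below both shCTR libraries, with shMETTL3 the lowest. In CPM such a gap below the controls was found for 27.3% of tested genes in shMETTL3 and 23.9% in shMETTL14 cells. The mean level was 30.6 ± 2.43 CPM (SD, n = 2) in the controls, 24.9 ± 1.01 CPM after METTL3 knockdown and 27.6 ± 0.549 CPM after METTL14 knockdown. NFIA was lower in shMETTL3 cells, with a log2 fold change of -0.30 (SE 0.0895, interval -0.48 to -0.11, adjusted p = 0.0276 in edgeR). The call was kept in 4 of 13 alternatives, while the direction was the same in all 13, from -0.38 to -0.22. The call was lost with DESeq2 (adjusted p = 0.0849) and with library size alone (adjusted p = 0.0704 in edgeR). It was also lost with no filter on low counts and with only the groups compared. Leaving out any library other than shCTR replicate 1 lost it too. In shMETTL14 cells the log2 fold change of NFIA was -0.15 (SE 0.0886, interval -0.33 to 0.04, adjusted p = 0.365 in edgeR). The 2 knockdowns differed by -0.15 (interval -0.34 to 0.04, adjusted p = 0.337 in edgeR), so a difference between them was not shown.

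NFIX (ENSG00000008441, chr19:12995608-13098796, plus strand), a second nuclear factor I gene linked to the level of fetal hemoglobin, had 611 and 616 reads in shCTR, 608 and 686 in shMETTL3, and 625 and 578 in shMETTL14 libraries. All 3 groups overlapped. The log2 fold changes were 0.05 (SE 0.0855, interval -0.13 to 0.23, adjusted p = 0.765 in edgeR) and -0.04 (SE 0.0861, interval -0.22 to 0.14, adjusted p = 0.838 in edgeR).

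**Figure D3:**
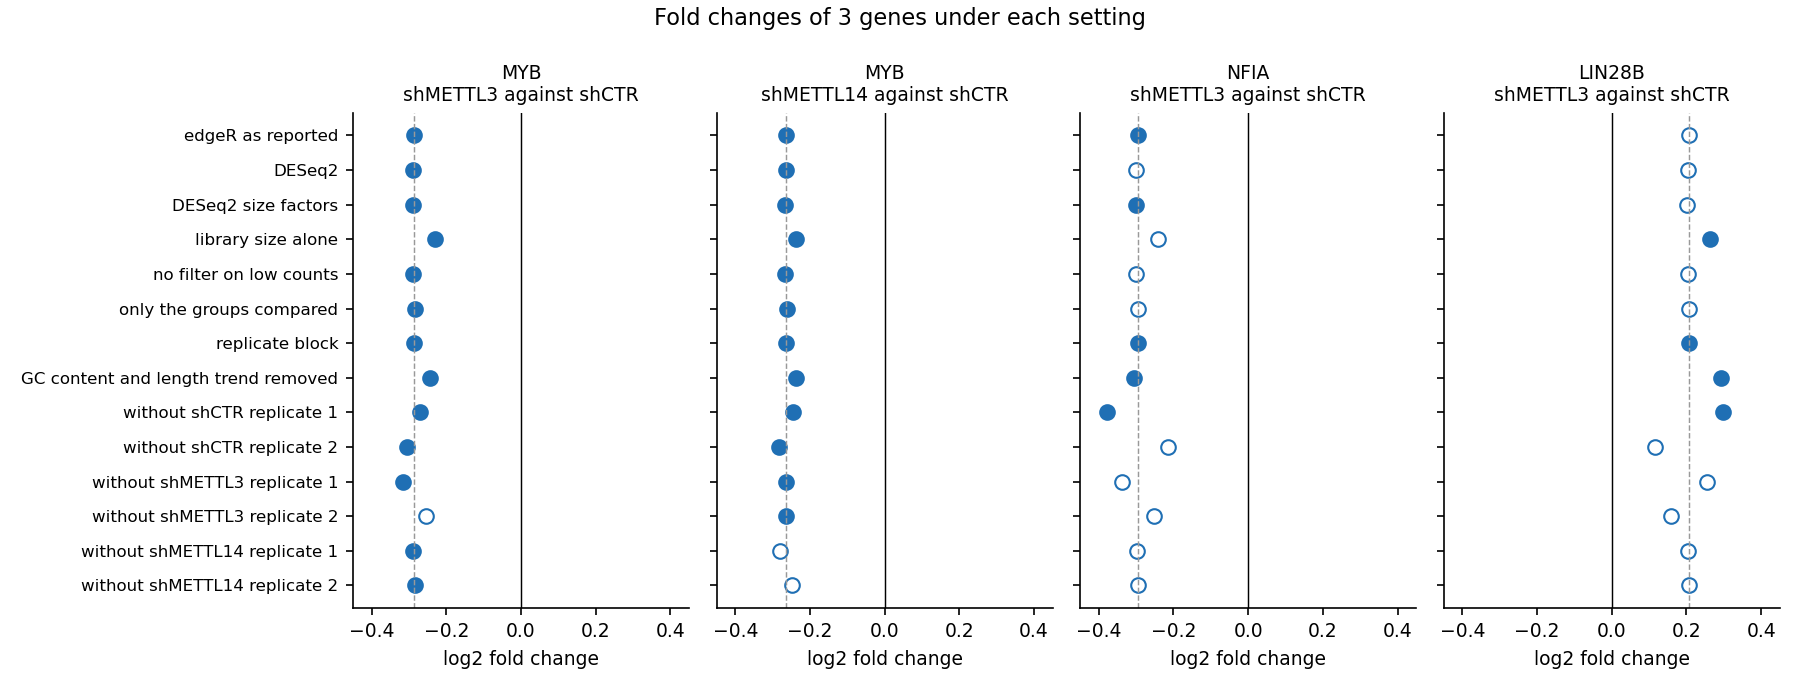
The log2 fold change (x axis) of MYB in both knockdowns and of NFIA and LIN28B in shMETTL3 cells as reported and under each of 13 alternative settings (y axis); filled points are past an adjusted p of 0.05 and the dashed line marks the reported value. MYB stays between -0.32 and -0.23 in shMETTL3 cells, NFIA is filled in 4 alternatives, and LIN28B, unfilled as reported, is filled in 4.

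The partners of these regulators were described through 8 lists of 80 genes, 76 of them tested. In shMETTL3 cells 12 were higher and 12 lower (31.6% called, median log2 fold change -0.0014), against 16.5% called and a median of 0.003 over all tested genes. In shMETTL14 cells 4 were higher and 6 lower (13.2% called, median -0.0145), against 6.69% and -0.0001. The lists were chosen with results of these data known, so these shares describe the genes and are not evidence of their own. The share called also differed by level, for which the lists were not matched. Among tested genes within 2-fold of a member's level it ran from 18.3% (SOX6) to 28.3% (HIC2) in shMETTL3 cells. In shMETTL14 cells it ran from 8.32% (NFIX) to 11.1% (HIC2). Of the 21 calls of list genes named below for shMETTL3 cells, 12 held in every alternative, those of HBA1, HBA2, HBE1, HBZ, KIT, KLF1, LIN28A, MYBL2, NR2C1, RUNX1, SOX13 and ZFPM1. Of the 8 list gene calls named for shMETTL14 cells, the call of HBE1 did. The direction of all 29 held throughout, while ZNF410 was called in 2 of 12 alternatives and KLF1 in shMETTL14 cells in 7 of 13.

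The globin genes include the gamma-globin genes, on which several of these regulators act. Of 9 globin genes tested, 4 were higher in shMETTL3 cells, with a list median of 0.41, against 8.73% of all tested genes. The median of 0.41 is the value of HBB, the beta-globin gene, which had only 3 to 12 reads in any library. Its interval ran from -1.08 to 1.90 (adjusted p = 0.739 in edgeR), so this median does not measure a typical rise. In shMETTL14 cells 1 was higher, with a median of 0.06, against 3.43% of all tested genes. HBE1, embryonic epsilon-globin, had 3904 and 4214 reads in shCTR, 7485 and 8685 in shMETTL3, and 5413 and 5456 in shMETTL14 libraries. It rose in both, with log2 fold changes of 0.96 (SE 0.0683, adjusted p = 1.64e-08 in edgeR) and 0.41 (SE 0.0687, adjusted p = 0.000814 in edgeR). HBZ, embryonic zeta-globin, rose in shMETTL3 cells by 1.02, HBA2 by 0.87 and HBA1 by 0.62 on the log2 scale (adjusted p from 1.46e-05 to 0.000616 in edgeR). The gamma-globin genes, on which BCL11A, ZBTB7A and NFI proteins act, did not pass the test in either knockdown. They are defining genes of K562, and both had few reads in every library. HBG2 had 138 and 125 reads in shCTR, 130 and 138 in shMETTL3, and 137 and 135 in shMETTL14 libraries. Its log2 fold changes were -0.0021 (interval -0.32 to 0.31, adjusted p = 0.993 in edgeR) and 0.04 (interval -0.28 to 0.35, adjusted p = 0.925 in edgeR). HBG1 had 10 to 22 reads in any library, with log2 fold changes of 0.19 (SE 0.419, adjusted p = 0.810 in edgeR) and -0.44 (SE 0.457, adjusted p = 0.638 in edgeR). HBG1 with HBG2, and HBA1 with HBA2, are near-identical copies, so the split of reads between them and their totals are uncertain.

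Of the 10 MYB partners, targets and locus neighbours, all tested, 1 was higher and 4 lower in shMETTL3 cells (median -0.05) and 2 were lower in shMETTL14 cells (median -0.05). After METTL3 knockdown 7.73% of all tested genes were called lower, and 8.73% higher. After METTL14 knockdown these shares were 3.26% and 3.43%. KIT, the stem cell factor receptor and a known MYB target, was the lowest gene of this list. It had 283 and 223 reads in shCTR, 115 and 142 in shMETTL3, and 167 and 184 in shMETTL14 libraries, with no overlap between control and knockdowns. Its log2 fold changes were -1.01 (SE 0.149, adjusted p = 0.000104 in edgeR) and -0.54 (SE 0.142, adjusted p = 0.0253 in edgeR). In CPM, libraries below both controls, as for KIT, were found for 27.3% of tested genes in shMETTL3 and 23.9% in shMETTL14 cells. HBS1L, the neighbour of MYB, was lower in both, at -0.25 (adjusted p = 0.0197 in edgeR) and -0.30 (adjusted p = 0.0158 in edgeR). AHI1, on the other side of MYB, was lower in shMETTL3 cells (-0.34, adjusted p = 0.0107 in edgeR) and at -0.19 in shMETTL14 cells (adjusted p = 0.202 in edgeR). CEBPB, a myeloid transcription factor that MYB works with, was higher in shMETTL3 cells (0.30, adjusted p = 0.00508 in edgeR).

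Of the 10 erythroid partner factors, all tested, 3 were higher and 2 lower in shMETTL3 cells (median 0.12), and 2 higher and 2 lower in shMETTL14 cells (median -0.0007). Calls over all tested genes, for METTL3 knockdown, came to 8.73% (higher) and 7.73% (lower). For METTL14 knockdown they came to 3.43% and 3.26%. KLF1, the erythroid activator of adult beta-globin and of BCL11A, had 2538 and 2990 reads in shCTR, 3580 and 3690 in shMETTL3, and 3405 and 3332 in shMETTL14 libraries. All 4 knockdown libraries were above the controls, with log2 fold changes of 0.36 (SE 0.0745, adjusted p = 0.00221 in edgeR) and 0.27 (SE 0.0746, adjusted p = 0.033 in edgeR). In CPM such a gap above the controls was found for 28.7% of tested genes in shMETTL3 and 25.0% in shMETTL14 cells. RUNX1, a haematopoietic transcription factor, was lower in both, at -0.33 (adjusted p = 0.00181 in edgeR) and -0.37 (adjusted p = 0.00158 in edgeR). ZFPM1, which encodes the GATA1 cofactor FOG1, rose by 0.53 on the log2 scale in shMETTL3 cells (adjusted p = 0.00137 in edgeR), and CBFA2T3, a corepressor of the GATA1 complex, by 0.36 (adjusted p = 0.00845 in edgeR).

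BCL11A and ZBTB7A recruit corepressors. Of 21 tested genes of NuRD and other corepressors, 3 were lower and 0 higher in shMETTL3 cells (median -0.14), against 7.73% lower and 8.73% higher over all genes. In shMETTL14 cells 2 were lower and 0 higher (median -0.05), against 3.26% and 3.43%. CDK2AP1, a NuRD subunit, was at -0.37 in shMETTL3 cells (adjusted p = 0.0201 in edgeR) and HDAC1, the histone deacetylase, at -0.23 (adjusted p = 0.015 in edgeR). In shMETTL14 cells RBBP4, a histone-binding NuRD subunit, was at -0.27 (adjusted p = 0.00919 in edgeR), as was RCOR1, which tethers the demethylase LSD1 (adjusted p = 0.0209 in edgeR). NR2C1 (TR2), a nuclear receptor that represses embryonic and fetal globin genes through direct repeats, was the 1 called of 3 such genes. It stood at 873 and 770 reads in the controls against 636 and 652 after METTL3 knockdown, a log2 fold change of -0.38 (adjusted p = 0.00372 in edgeR).

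Of 6 upstream regulators of BCL11A or of the fetal genes, 2 were lower in shMETTL3 cells and none passed the test in shMETTL14 cells (medians -0.07 and 0.01). For this and the next 2 lists, the shares over all tested genes were 8.73% higher and 7.73% lower in shMETTL3 cells. In shMETTL14 cells they were 3.43% and 3.26%. EIF2AK1, the heme-regulated kinase HRI, stood at 6860 and 6534 reads in the controls against 5944 and 5960 after METTL3 knockdown, a log2 fold change of -0.20 (adjusted p = 0.0198 in edgeR). ZNF410, an activator of the NuRD subunit gene CHD4, was at -1.43 with only 5 to 16 reads in any library (adjusted p = 0.0488 in edgeR). Of 9 tested genes around LIN28 and let-7, 1 was higher in each knockdown (medians -0.05 and -0.01). This was LIN28A, the paralog of LIN28B, with 24 and 29 reads in shCTR, 82 and 59 in shMETTL3, and 67 and 58 in shMETTL14 libraries. Its log2 fold changes were 1.38 (SE 0.270, adjusted p = 0.00125 in edgeR) and 1.22 (SE 0.273, adjusted p = 0.00781 in edgeR). Of 8 tested paralogs of the members, 3 were higher in shMETTL3 cells and none was called in shMETTL14 cells (medians 0.31 and 0.09). They were SOX13, a paralog of SOX6 (1.60, adjusted p = 0.00117 in edgeR, 13 to 59 reads), MYBL2, the cell cycle paralog of MYB (0.34, adjusted p = 0.00135 in edgeR), and ZBTB7B, a paralog of ZBTB7A (0.27, adjusted p = 0.0251 in edgeR).

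**Figure D4:**
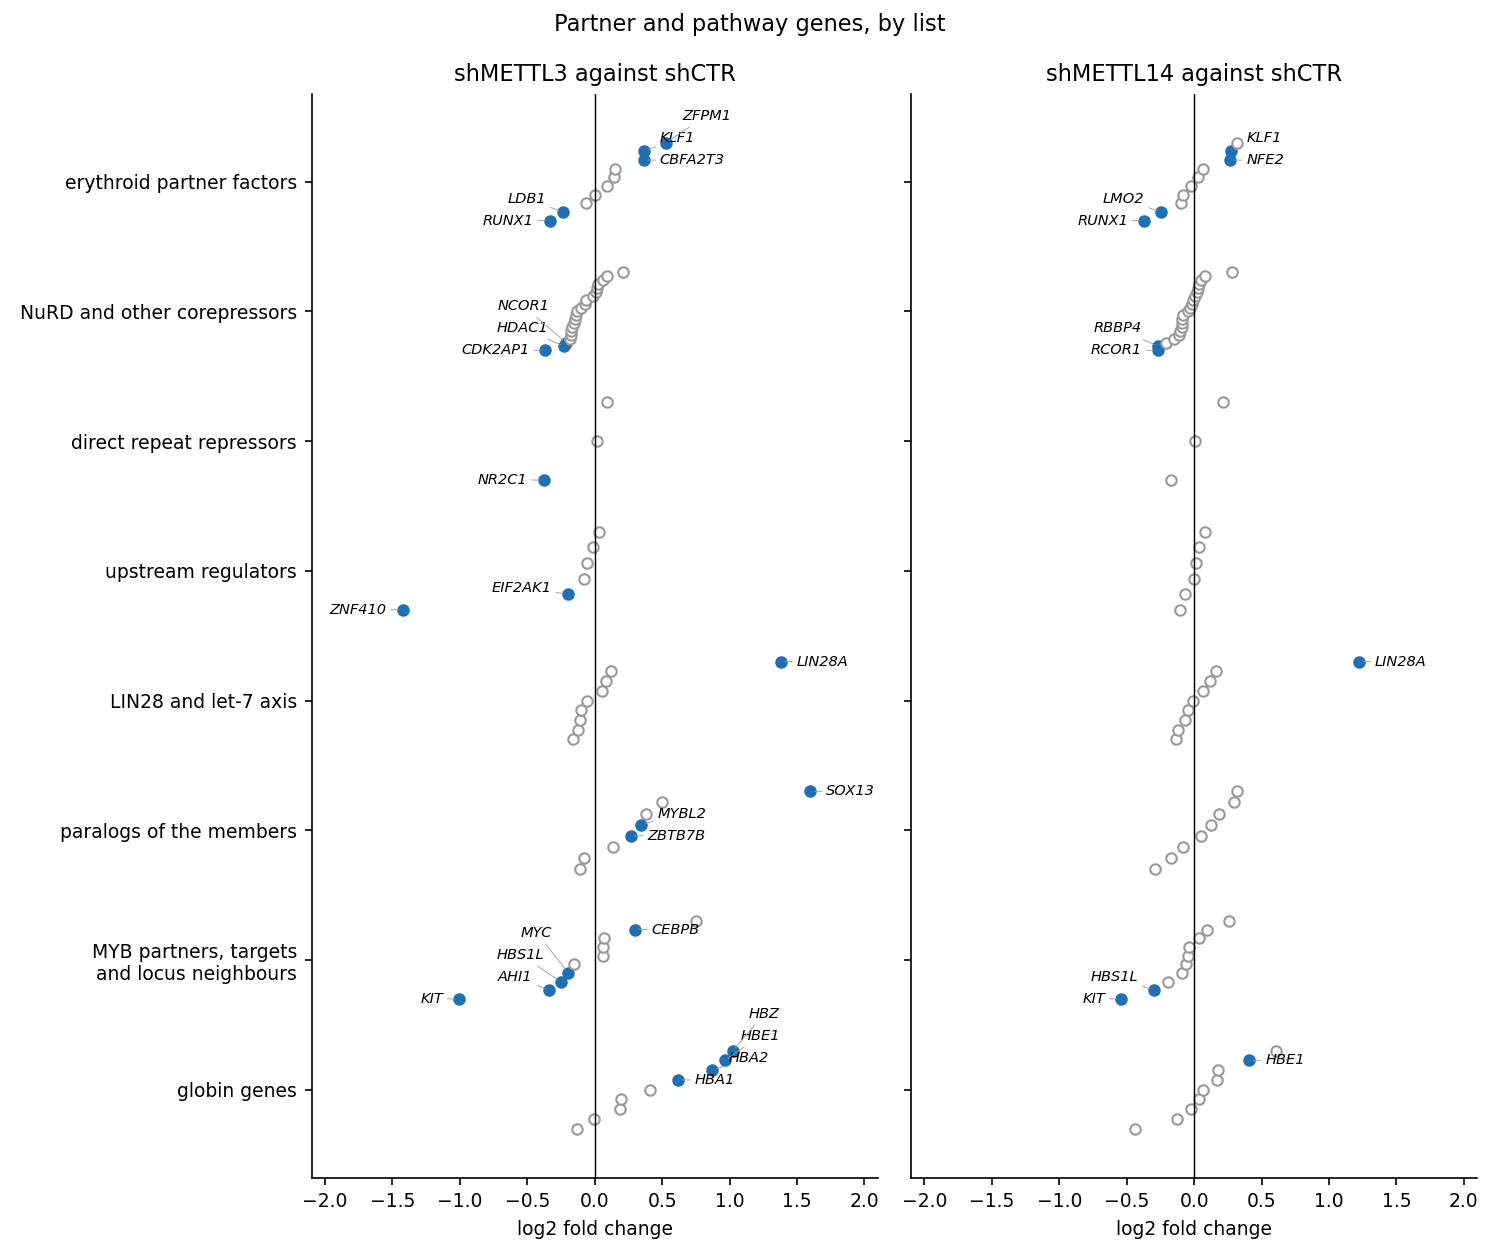
The log2 fold change (x axis) of each tested gene of the 8 lists (y axis) in shMETTL3 and shMETTL14 cells against shCTR; each point is a gene, and filled, named points are past an adjusted p of 0.05 in edgeR. The corepressor list has filled points only below 0, the globin list only above 0, and KIT is the lowest of the MYB list at -1.01 and -0.54.

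The genes around MYB were looked at after the values of MYB, HBS1L and AHI1 had been seen. Of 24 other tested genes within 3 Mb of the MYB start, 5 were lower and 1 was higher in shMETTL3 cells (20.8% lower, median log2 fold change -0.09). HBS1L and AHI1, which prompted the look, are 2 of the 5, and without them 3 of 22 were lower (13.6%). Over the 868 tested genes of chromosome 6, 7.37% were lower and the median was 0.0018. In shMETTL14 cells 1 of the 24 was lower and 1 higher (4.17% lower), against 3.46% lower on the chromosome. Counted from the MYB start, HBS1L starts at -78.3 kb and AHI1 at 316.5 kb. IFNGR1, the interferon gamma receptor gene 2038.1 kb after MYB, was lower in shMETTL3 cells (-0.33, adjusted p = 0.016 in edgeR) and higher in shMETTL14 cells (0.30, adjusted p = 0.0389 in edgeR). The first call held in 11 of 13 alternatives and the second in 6 of 13, and in 1 of 6 with a library left out (adjusted p up to 0.253 in edgeR). SLC18B1 (-0.31) and RPS12 (-0.18) were lower and TBPL1 (0.25) was higher in shMETTL3 cells, called in 11, 8 and 8 of 13 alternatives.

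**Figure D5:**
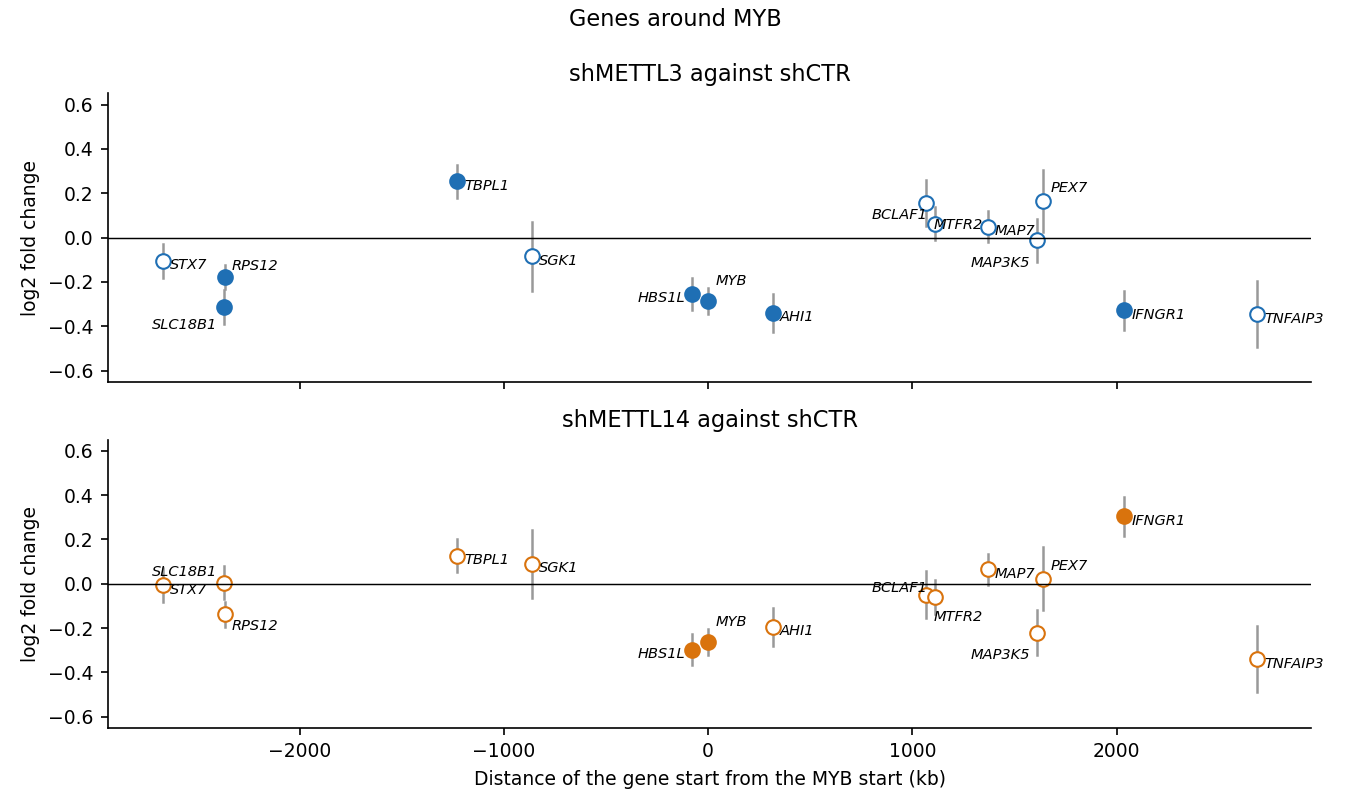
The log2 fold change (y axis) of genes with at least 100 reads in every library around MYB, by the distance of their start from the start of MYB in kb (x axis), in each knockdown against shCTR; bars are 1 standard error and filled points are past an adjusted p of 0.05. HBS1L, MYB and AHI1 lie between -0.34 and -0.19 in both panels.

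Across the 6 libraries, the genes whose level in log2 CPM was most like that of each member were found among 10664 genes with at least 100 reads in every library. The measure was Pearson's r over the 6 libraries, given as a description, since with so few points and 3 groups many genes come close. For MYB they were CCT8 (0.997), RABGGTB (0.995) and RBM28 (0.995), and 134 genes had an r above 0.95. For NFIA they were RNF7, METTL25B and WT1 (0.992 to 0.994), with 58 genes above 0.95. For HIC2 they were ACOX3, MIF4GD and CNP (0.994 to 0.997), and for LIN28B DCAF10, TEX15 and C7orf31 (0.968 to 0.974). For ZBTB7A they were TNRC6C-AS1, LINC00680 and PPARD, for SOX6 PTPRC, ATG14 and ANKRD17, and for NFIX STN1, USP3 and NHP2, with r from 0.985 to 0.996.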

How the data were processed

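The authors deposited 1 table of whole-number read counts per gene, not normalized, for 61661 identifiers in 6 libraries. They enriched poly(A) mRNA with oligo(dT) beads. The submitters' processing notes name HTSeq 0.6.1 and the build hg38; the aligner and annotation release are not given in the sources used here. Identifiers without a gene name held up to 0.703% of a library's reads. The median library total was 19645212 reads. Names were matched through a gene name table and GENCODE 29, which also gave coordinates, lengths and transcripts on GRCh38.

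In R 4.3.3, edgeR 4.0.16 was run on the counts: filterByExpr (minimum count 10), TMM factors, and the quasi-likelihood test fitted once to the 6 libraries, p-values being Benjamini-Hochberg adjusted over 17686 genes and a threshold of 0.05. TMM sets each gene against the rest of its library. CPM values carry the TMM factors. Groups came from the labels. No unique molecular identifiers are described, so intervals cover counting error and library spread only. Within each group the pair of libraries differed beyond sampling noise (mean chi-square per gene 2.546 to 5.301). The steps were tested on simulated data. Alternatives were DESeq2 1.42.0, its size factors, library size alone, no filter, only the groups compared, a replicate block, each library left out, and, chosen after seeing the data, removal of each library's GC and length trend (mgcv 1.9.3). All 8 members were described, and of each list up to 4 called genes with the largest change, plus HBG1, HBG2, HBE1, METTL3 and METTL14. The members and lists were chosen with earlier results of these data known. Genes near MYB were added later. Some marker genes are not reported here.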

Additional observations from a re-analysis of the deposited data

Results flagged for a closer look

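Each of the following genes was picked out because the test of shMETTL3 against shMETTL14 itself passed an adjusted p of 0.05 in edgeR. None of the globin switching regulators tested was among them, and BCL11A was not tested. Values are log2 differences, shMETTL3 minus shMETTL14.

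The targeted genes differed as their labels say, with METTL3 at -0.73 and METTL14 at 0.89. Among globin genes the values were 0.96 for HBZ, 0.74 for HBA1, 0.70 for HBA2 and 0.56 for HBE1. Among erythroid factors and corepressors they were 0.39 for CBFA2T3, 0.25 for LMO2, which bridges the GATA1 and TAL1 complex, and -0.42 for CDK2AP1. EIF2AK1 was at -0.20 and CEBPB at 0.34. The paralogs SOX13, HIC1 and MYBL2 were at 1.28, 0.79 and 0.29. Near MYB, IFNGR1 was at -0.63 and SLC18B1 at -0.32. Among marker genes, ITGA2B (the platelet integrin subunit) was at 0.96 and LYZ at -1.97. LYZ was lower than shCTR in shMETTL3 cells and higher than shCTR in shMETTL14 cells, calls that held in 13 of 13 alternatives each. IFNGR1 had the same directions, but its call in shMETTL14 cells held in only 6 of 13. Of the differences between the knockdowns, those of METTL3, METTL14, HBZ, HBA1, HBA2, HBE1, IFNGR1, ITGA2B and LYZ held in 13 of 13 alternatives and those of CEBPB, MYBL2 and SOX13 in 11. Those of CBFA2T3, CDK2AP1, HIC1, LMO2 and SLC18B1 held in 9 and that of EIF2AK1 in 8, and LMO2 ranged from 0.13 to 0.37.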

How the results depend on the processing

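The count of members called in shMETTL3 cells, 2 as reported, was 1 (MYB) with DESeq2, with no filter on low counts and with only the groups compared, and ranged from 0 to 3 with each library left out. In shMETTL14 cells the count of 1 ranged from 0 to 1, and between the knockdowns it was 0 in every setting. Where a library was left out, its group had 1 library, which was assumed to vary like the other groups. The replicate numbers did not pair the libraries (correlations of replicate differences 0.0614, 0.00511 and -0.02). With the replicate number as a block, 3 members (LIN28B, NFIA, MYB) were called in shMETTL3, 1 in shMETTL14 and 0 between the knockdowns, and 26, 13 and 16 list genes. That setting called 18.5%, 8.25% and 14.0% of all tested genes, in the same order. Of the list genes, 12 differed between the knockdowns, against 20 with only the groups compared and 20 with the GC and length trend removed. The share of all tested genes that differed rose too, from 12.1% as reported to 16.7% and 17.4% in those settings.

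Signs turned only for values that had not passed the test. With the GC and length trend removed, ZBTB7A was at -0.094, HIC2 at -0.0282 and NFIX at -0.094 in shMETTL3, and HIC2 at -0.0342 in shMETTL14. With each library left out, ZBTB7A ranged from -0.0082 (and stood at -0.0001 in another) to 0.1157 in shMETTL3, SOX6 from -0.2506 to 0.0044 in shMETTL3 and from -0.0869 to 0.1687 in shMETTL14, HIC2 from -0.011 to 0.069 in shMETTL14, and NFIX from -0.0251 to 0.1165 in shMETTL3 and from -0.0979 to 0.0114 in shMETTL14. MYB between the knockdowns was at 0.0068 with library size alone, and from -0.051 to 0.0108 (without shMETTL3 replicate 2) with each library left out. The cause was not tested. Per summed exon length, levels in shCTR were 50.6 CPM per kb for MYB, 5.01 for NFIX, 2.81 for NFIA, 1.42 for SOX6 and 0.00706 for BCL11A, in the same order, with NFIA and SOX6 farther apart. BCL11A, at up to 6 reads in a library, could not be compared at this depth.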
